A study of Mus musculus with 16 samples.

Results

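The heat shock chaperone genes described here were the 10 genes with the symbols Hspa1a, Hspa1b, Hspa8, Hsph1, Hsp90aa1, Dnajb1, Bag3, Hspb1, Hspb8 and Cryab. They were found by symbol in the deposited count and FPKM tables, where they were 10 of 35415 genes, and all 10 were among the 14749 genes with enough counts to be tested. In 16 gastrocnemius libraries from trained and untrained mice with and without CT26 tumors, 0 of the 10 genes passed the test for any comparison of the groups, against 0.0% to 1.36% of all tested genes. From mouse to mouse within the groups, 38 of the 45 pairs of the 10 genes (84.4%) had a Pearson r above 0 and 31 (68.9%) an r above 0.5, against 49.9% and 5.32% of all pairs of tested genes. A permutation test was passed by 21 of the 45 pairs (12 to 29 with 1 library left out), of which 0 included Dnajb1 (0 to 2 with 1 library left out). The 21 pairs had an r above 0, and the pairs with Dnajb1 that passed with 1 library left out had an r below 0.

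The study asked how a colon tumor and treadmill running, alone and together, change the transcripts of the gastrocnemius, a mainly fast muscle of the calf. Male BALB/c mice, 8 weeks of age when bought, made up the C (control), E (exercise), T (tumor) and TE (tumor and exercise) groups, with 12 mice per group, of which 4 per group were sequenced. T and TE mice were injected under the skin of the hind limb with CT26 cells, a colon carcinoma line from BALB/c mice, so that tumor and host shared a strain, and C and E mice were given saline. From the day after injection, the E and TE mice ran for 4 weeks, 6 days a week and 60 min each day, at a speed of 14 m/min, and C and T mice were placed daily on a treadmill that did not move. The labels call each library a biological replicate and give 1 batch number for all of them. Library totals were 35628211 to 37635741 counts. Values of single mice are given as CPM, counts scaled to the same library size with the TMM factors of edgeR, and 3 counts come to 0.0797 to 0.0842 CPM before these factors are applied. The summed level of 12 fast myofiber markers, such as Acta1 and Ckm, was 92485 to 108032 FPKM (counts scaled to library total and gene length) in the 16 libraries, and each of the 12 was detected.

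Heat shock proteins keep other proteins folded. HSP70 proteins (Hspa1a, Hspa1b, Hspa8) bind unfolded stretches and release them in cycles of ATP use, J-domain proteins such as Dnajb1 deliver the clients and start the cycle, and nucleotide exchange factors such as Hsph1 and Bag3 end it. Hsp90aa1 encodes the inducible cytosolic HSP90, which completes the folding of kinases and steroid receptors, and the small heat shock proteins Hspb1, Hspb8 and Cryab hold unfolding proteins without using ATP. In muscle, BAG3 joins HSP70 to HSPB8 at the Z-disc, where damaged filamin is passed to autophagy, and Cryab binds desmin and titin. Heat shock factor 1 switches most of these genes on through heat shock elements, repeats of the unit GAA and its complement TTC in alternation.

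Hspa1a and Hspa1b each consist of 1 exon on chromosome 17 (Hspa1a chr17:35188166-35191132, minus strand, Hspa1b chr17:35175412-35178214, minus strand, GRCm39), and 9951 bases lie between them. Of all 150-base windows of their transcripts, 38.1% in Hspa1a and 40.5% in Hspa1b occur unchanged in the other gene, so reads that lie in a shared stretch match both genes and the split between the 2 genes is uncertain. If such reads were left out of the counts, the levels of both genes are too low. Cryab (chr9:50651859-50668567, plus strand) overlaps 4 genes on the opposite strand, 2310030G06Rik by 871 exon bases, Hspb2 by 757 and the lncRNA genes Gm67675 and Gm67659 by 122 and 106. The strand setting of the counting is not given in the sources used here, so it is not known whether reads from these bases were counted for Cryab, for the opposite gene or for neither. The other genes are Hspa8 (chr9:40711630-40731039, plus strand), Hsph1 (chr5:149537636-149560156, minus strand), Hsp90aa1 (chr12:110656842-110669166, minus strand), Dnajb1 (chr8:84334811-84339820, plus strand), Bag3 (chr7:128125283-128148705, plus strand), Hspb1 (chr5:135916760-135918417, plus strand) and Hspb8 (chr5:116546409-116561084, minus strand). In all, 7 of the 10 genes share exon bases with at least 1 other gene of the GENCODE M39 annotation, whose release may differ from that of the authors.

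The promoter region from 250 bases before to 50 bases after the start of the Ensembl canonical transcript was searched on both strands for 2 adjoining units, GAANNTTC or TTCNNGAA, each of which reads the same on both strands. This start lies inside the gene spans given above for 5 genes, 12328 bases from the outermost start in Cryab, 6285 in Hsp90aa1, 650 in Hspa8, 350 in Hsph1 and 11 in Dnajb1. The match occurred in 6 of the 10 genes (60%), compared with 14.26% of 21757 promoters of protein-coding genes of the same length. A run of 3 units was found in 0 of the 10 genes and in 0.478% of all these promoters. The 30 bases around the match nearest before the start are shown for the 5 genes that have a match before the start, read 5′ to 3′ along the gene's strand from the GRCm39 reference, which is of the C57BL/6J strain and not of BALB/c. The capitals mark the match.
Hspa1a (chr17:35191218-35191247, minus strand): cgaaactgctgGAAGATTCctggccccaag
Hspa1b (chr17:35178300-35178329, minus strand): cgaaactgctgGAAGATTCctggccccaag
Hspb1 (chr5:135916665-135916694, plus strand): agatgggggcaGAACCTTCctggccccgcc
Hsph1 (chr5:149559816-149559845, minus strand): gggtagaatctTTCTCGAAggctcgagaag
Cryab (chr9:50664137-50664166, plus strand): gctaagcctagGAAGATTCcagtccctgcc
The windows of Hspa1a and Hspa1b were identical, with the match 104 bases before the start in both. Hspb1 had a match 84 bases and another 104 bases before the start, Cryab 39 bases and Hsph1 28 bases before it. Hsph1 also had a match that began 41 bases after the start, and the match of Dnajb1 began 28 bases after it. Hspa8, Hsp90aa1, Bag3 and Hspb8 held no such letters in this window, which says nothing of elements elsewhere.

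**Figure D1:**
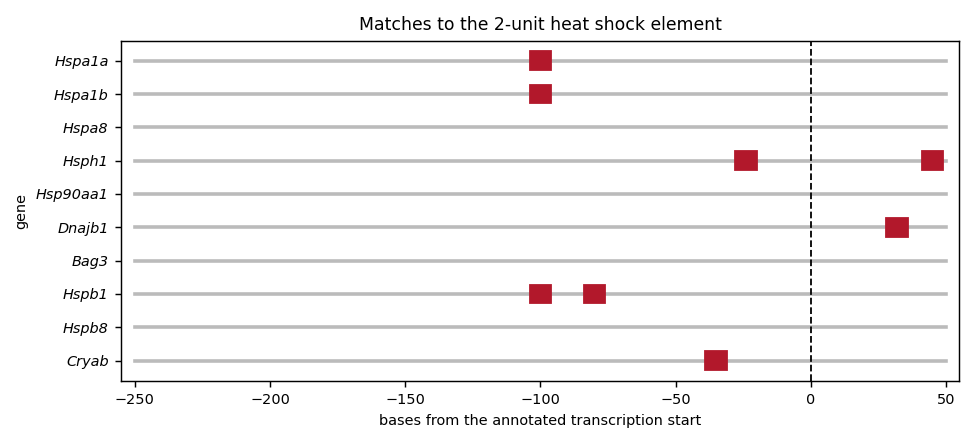
Matches to the 2-unit heat shock element in the promoter regions of the 10 genes. The x axis gives bases from the start of the canonical transcript (dashed line), each grey line is the region searched, and each red block is an 8-base match, of which there are 8 in 6 genes.

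Per length of gene, Hspa8, the constitutive HSP70, was the most abundant of the genes at 289 ± 47.1 FPKM (SD, n = 16), and it ranked 153 among the 35415 genes. Cryab followed at 284 ± 78.5 FPKM, a difference from Hspa8 that was within the spread over mice. Hspb8 (192 ± 29.0 FPKM), Hspb1 (135 ± 29.95) and Bag3 (59.1 ± 8.80) came next. The range over the 16 libraries of each gene overlapped that of its neighbour in this order down to Hspb1, and that of Bag3 overlapped neither neighbour. Hsp90aa1 (16.3 ± 4.14 FPKM), Hsph1 (8.66 ± 1.60) and Dnajb1 (3.67 ± 0.741) were lower, and of these only Hsp90aa1 and Hsph1 overlapped, by less than the SD of either. The inducible HSP70 genes were lowest, with 2.79 ± 1.54 FPKM for Hspa1a and 1.84 ± 1.16 FPKM for Hspa1b, and these 2 and Dnajb1 overlapped in their ranges. Reads that match both HSP70 genes may not have been counted, so the rank of these 2 below Dnajb1 is uncertain. Together the 10 genes took 0.160% to 0.256% of the counts of a library.

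The rarest of the genes varied most between mice. Between the lowest and highest library, Hspa1b differed 7.49-fold and Hspa1a 4.91-fold in CPM, compared with 2.50-fold for Cryab and 1.69-fold to 2.04-fold for the other 7 genes. The biological coefficient of variation within groups, as edgeR estimates it, was 40.0% for Hspa1a and 40.8% for Hspa1b, whereas genes of like abundance had 16.5% and 19.2%. Their counts were 77 to 671 per library, at which Poisson counting alone gives a coefficient of variation of 3.86% to 11.4%, PCR copies not included. The groups held 4.99% (Hspa8) to 27.2% (Dnajb1) of the variance of each gene over the 16 libraries, and the median of the tested genes was 24.7%. With so few mice per group, this share lies above 0 even where the groups do not differ. In RNA from whole muscle, fewer cells of a type and less RNA per cell cannot be told apart.

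Hspa1a, the stress-inducible HSP70, had 5.89, 5.89, 3.59 and 7.23 CPM in the C mice, 17.6, 8.70, 4.89 and 5.59 CPM in the E mice, 14.9, 5.91, 14.6 and 5.14 CPM in the T mice and 9.94, 5.32, 5.69 and 3.93 CPM in the TE mice. Its near-copy Hspa1b had 3.24, 5.36, 2.08 and 5.52 CPM in C, 15.6, 5.59, 4.10 and 4.29 CPM in E, 6.81, 3.21, 7.66 and 2.90 CPM in T and 5.43, 3.73, 3.69 and 3.26 CPM in TE. In the T group, replicates 1 and 3 were high for both genes and replicates 2 and 4 lay within the range of the C mice, and in the E group replicate 1 was far above the other 3. The groups overlapped in all 4 comparisons of 2 groups. In T vs C, the log2 fold change was 0.84 (SE 0.418, adjusted p = 0.377 by edgeR) for Hspa1a and 0.34 (SE 0.427, adjusted p = 0.763 by edgeR) for Hspa1b. In E vs C it was 0.70 (SE 0.418, adjusted p = 0.460 by edgeR) for Hspa1a and 0.87 (SE 0.425, adjusted p = 0.371 by edgeR) for Hspa1b. Without E replicate 1, the E vs C values were 0.18 and 0.20, and without T replicate 3, the T vs C values were 0.61 and 0.082. The 95% interval of Hspa1a in T vs C, -0.04 to 1.72, still held changes of more than 2-fold.

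**Figure D2:**
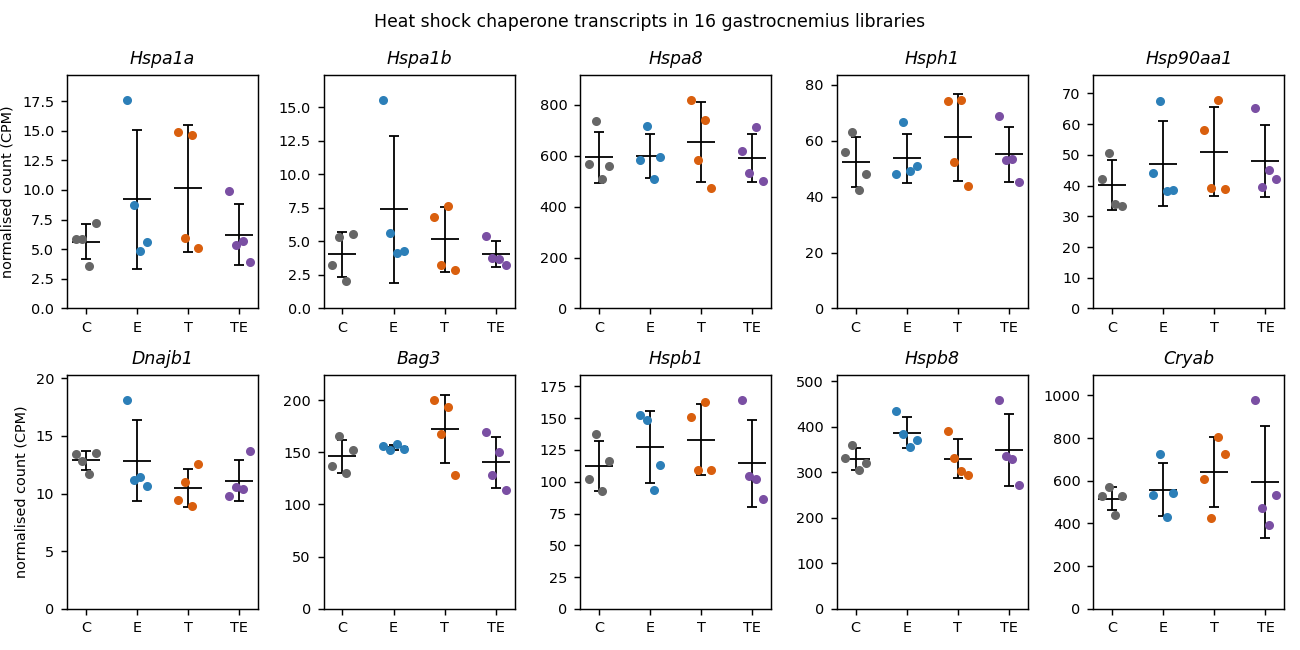
Normalised counts (CPM, y axis from 0) of the 10 chaperone genes in the C, E, T and TE groups (x axis). Each point is 1 mouse, in the order of the replicate numbers from left to right, and bars give the mean ± SD of 4 mice. The points of the groups overlap for every gene, and single mice, such as E replicate 1 for Hspa1b at 15.6 CPM, stand above the rest of their group.

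Among the partners of HSP70, Bag3 had 137, 165, 130.2 and 152 CPM in C, 156, 152, 158 and 153 CPM in E, 200.3, 168, 194 and 129 CPM in T and 169.6, 128, 150.5 and 114 CPM in TE. The 4 E mice lay between 152 and 158 CPM, and the T mice spread from below the lowest C mouse to above the highest. Dnajb1 had 13.5, 12.9, 11.7 and 13.5 CPM in C, 18.1, 11.2, 11.4 and 10.7 CPM in E, 9.41, 11.03, 8.92 and 12.6 CPM in T and 9.75, 10.6, 10.4 and 13.7 CPM in TE. Of the tumor-bearing mice, 6 lay below the lowest C mouse, and T replicate 4 and TE replicate 4 lay among or above the C mice. E replicates 2, 3 and 4, which had no tumor, also lay below the lowest C mouse. Hsph1, the HSP110 exchange factor, ranged from 42.3 to 74.7 CPM over the 16 libraries. Its highest values were 74.2 and 74.7 CPM in T replicates 1 and 3, the mice that were also high for Hspa1a. E replicate 1, the mouse with the highest Hspa1a, had 47.9 CPM of Hsph1, the lowest of the E mice.

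Hsp90aa1 had 42.3, 50.7, 34.1 and 33.4 CPM in C, 44.2, 67.4, 38.4 and 38.6 CPM in E, 58.0, 39.2, 68.0 and 39.0 CPM in T and 65.4, 39.4, 44.9 and 42.3 CPM in TE. A value of 58.0 CPM or more occurred in E replicate 2, T replicates 1 and 3 and TE replicate 1, and in no C mouse. The constitutive Hspa8 ranged from 472 to 819.8 CPM, with both ends in the T group.

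Of the small heat shock genes, Cryab had 527, 571, 439.8 and 528 CPM in C, 533, 726, 432 and 544 CPM in E, 608, 426, 803 and 725 CPM in T and 979, 473, 391 and 531 CPM in TE, so that the highest and the lowest of the 16 values both fell in the TE group. Hspb1 had 102, 138, 92.5 and 116 CPM in C, 153, 148, 93.8 and 113 CPM in E, 151, 109, 163 and 109 CPM in T and 164, 104, 102 and 86.4 CPM in TE. Hspb8, the BAG3 partner, had 332, 360.5, 304 and 319 CPM in C, 435, 384, 356 and 371 CPM in E, 390.4, 333, 304 and 295 CPM in T and 459, 336, 329.6 and 273 CPM in TE. For Hspb8, 3 of the 4 E mice lay above the highest C mouse, and E replicate 3 lay just below it.

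In T vs C, 0 of the 10 genes passed the test at an adjusted p under 0.05 (edgeR quasi-likelihood test, Benjamini-Hochberg over all genes tested), against 0.678% of all tested genes, the background. The count was also 0 with DESeq2, which called 421 of all 14749 genes, and with limma-voom, which called 68. An unadjusted p under 0.05 with edgeR was found for 0 of the 10 genes (background 14.2%). The groups were free of overlap for 0 of the 10 genes (background 6.86%). The fitted differences were above 0 for 9 genes (7331 of all 14749 tested genes) and below 0 for Dnajb1, with a median of 0.24 on the log2 scale beside -0.0012 for all tested genes. After Hspa1a, the values were 0.35 (SE 0.218) for Hsp90aa1, 0.31 (SE 0.238) for Cryab, 0.25 (SE 0.199) for Hspb1, 0.24 (SE 0.129) for Bag3, 0.23 (SE 0.172) for Hsph1 and 0.14 (SE 0.160) for Hspa8. Dnajb1 had -0.30 (SE 0.160, adjusted p = 0.420 by edgeR). Without T replicate 3, the values were 0.17 for Hsp90aa1, 0.18 for Cryab, 0.13 for Hspb1, 0.12 for Hsph1 and 0.072 for Hspa8, and Hspa8 had 0.013 without T replicate 1. Without T replicate 4 the values were higher, at 0.27 for Hspa8, 0.36 for Hsph1 and 0.54 for Hspa1b, and Hspa8 had 0.26 without C replicate 2. Without T replicates 3 and 4 and TE replicate 4, the difference of Cryab was -0.000158. Several marker lists moved in the same comparison, each with every marker detected. The slow myofiber markers were above 0 for 10 of 10 (median 0.42), with a summed level of 810 to 1796 FPKM in T, where replicates 3 and 4 had 1632 and 1796, and 664 to 1382 FPKM in C. The macrophage markers were above 0 for 10 of 10 (median 0.77, 6 at an unadjusted p under 0.05, 75.1 to 171 FPKM in T and 57.5 to 113 in C), and the neutrophil markers for 9 of 10 (median 2.72, 5 past the adjusted test of edgeR). The Schwann cell markers were below 0 for 8 of 8 (median -0.60, 5 at an unadjusted p under 0.05, 124 to 257 FPKM in T and 176 to 404 in C). The lymphocyte markers were below 0 for 15 of 15 (median -2.81, 6 at an unadjusted p under 0.05). The erythroid markers were above 0 for 7 of 7 (median 0.86, 4 past the adjusted test of edgeR) and the adipocyte markers for 7 of 8 (median 1.02). The part of these lists in the values of the 10 genes was not tested.

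In E vs C, 0 of the 10 genes passed the test (background 0.0881%), 0 had an unadjusted p under 0.05 (background 14.2%), and 0 were free of overlap (background 9.08%). The number passed was also 0 with DESeq2, which called 236 of all 14749 genes, and with limma-voom, which called 141. The fitted differences were above 0 for 9 genes (7 to 10 with 1 library left out) and for 7468 of all 14749 tested genes. Their median was 0.15 on the log2 scale for the 10 genes, beside 0.0033 for all tested genes. Hspb8, with 0.23 (SE 0.126, adjusted p = 0.417 by edgeR), had a 95% interval of -0.03 to 0.50. Hsp90aa1 had 0.23 (SE 0.218), Hspb1 0.18 (SE 0.199) and Bag3 0.08 (SE 0.129). With 1 library left out, Hsp90aa1 ranged from 0.010 (without E replicate 2) to 0.365 (without C replicate 2), Hspb1 from 0.078 (without E replicate 1) to 0.296 (without E replicate 3) and Bag3 from 0.029 (without C replicate 3) to 0.147 (without C replicate 2). In the same comparison, the fibroblast markers were above 0 for 9 of 9 (median 0.50, 8 at an unadjusted p under 0.05), with a summed level of 543 to 681 FPKM in E and 372 to 509 in C. The adipocyte markers were above 0 for 8 of 8 (median 1.39, 513 to 839 FPKM in E and 456 to 644 in C), the endothelial markers for 8 of 10 (225 to 231 FPKM in E and 171 to 211 in C) and the fast myofiber markers for 1 of 12 (median -0.11). Their part in the values of the 10 genes was not tested. T vs C and E vs C share the C mice, so the like signs of the 2 comparisons are not independent of each other. Most of the genes also varied together from mouse to mouse, as given below, so their like signs within a comparison are not independent either.

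In TE vs T, 0 of the 10 genes passed the test (background 0.0%). Of all 14749 genes, edgeR and limma-voom called 0 and DESeq2 called 7, and 867 (5.88%) had an unadjusted p under 0.05 by edgeR. Bag3 was the 1 gene of the 10 with an unadjusted p under 0.05, at -0.30 (SE 0.129, adjusted p = 0.843 by edgeR), with a 95% interval of -0.57 to -0.03. Without TE replicate 1, 4 of the 10 had an unadjusted p under 0.05 (Bag3, Cryab, Hspa1a and Hspb1, background 5.92%), and without T replicate 1, T replicate 3, TE replicate 2 or TE replicate 4 the number was 0. The groups were free of overlap for 0 genes (background 2.58%), and with DESeq2 and limma-voom 0 genes passed. The fitted differences were below 0 for 8 genes (6 to 9 with 1 library left out) and for 7306 of all 14749 tested genes. Their median was -0.15 on the log2 scale for the 10 genes, beside 0.0014 for all tested genes. In the same comparison, the slow myofiber markers were below 0 for 10 of 10, with a median of -0.89. Of these, 10 had an unadjusted p under 0.05 and 0 passed the adjusted test of edgeR. Their summed level was 810 to 1796 FPKM in T and 653 to 891 FPKM in TE. The lymphocyte markers were above 0 for 15 of 15 (median 3.73, 12 at an unadjusted p under 0.05). Their summed level was 0.933 to 2.22 FPKM in T and 1.11 to 63.0 FPKM in TE, highest in TE replicate 4. The macrophage markers were below 0 for 10 of 10 (median -0.29) and the neutrophil markers for 9 of 10 (median -0.50). The part of these lists in the values of the 10 genes was not tested. Hspa1a had -0.71 (SE 0.416), Hspa1b -0.35 (SE 0.427), Hspb1 -0.22 (SE 0.199), Hsph1 -0.15 (SE 0.172) and Cryab -0.11 (SE 0.238). Without T replicate 3, these values were -0.47 for Hspa1a, -0.090 for Hspa1b, -0.10 for Hspb1, -0.040 for Hsph1 and 0.021 for Cryab, whereas without TE replicate 1 they were -0.53 for Hspa1b, -0.44 for Hspb1, -0.28 for Hsph1 and -0.46 for Cryab. The sign of Cryab turned to 0.25 without T replicates 3 and 4 and TE replicate 4.

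In TE vs E, 0 of the 10 genes passed the test (background 0.231%), 0 had an unadjusted p under 0.05 (background 9.23%) and 0 were free of overlap (background 6.62%). The number passed was also 0 with DESeq2, which called 178 of all 14749 genes, and with limma-voom, which called 61. Hspa1b had -0.87 (SE 0.425, adjusted p = 0.555 by edgeR) and Hspa1a -0.56 (SE 0.416), and without E replicate 1 these values were -0.21 and -0.038. Hspb8 had -0.15 (SE 0.126), which ranged from -0.31 (without TE replicate 1) to -0.037 (without TE replicate 4) with 1 library left out. The fitted differences were below 0 for 7 genes (7258 of all 14749 tested genes) and above 0 for 3, with a median of -0.14 on the log2 scale beside 0.0029 for all tested genes. They were below 0 for 10 of 10 without TE replicate 1 (median -0.25), with limma on log2(FPKM + 1) (median -0.20 beside -0.026 for all tested genes) and with limma on log2(FPKM + 0.1) (median -0.21 beside -0.043), and for 6 to 10 with 1 library left out. In the same comparison, the fibroblast markers were below 0 for 9 of 9 (median -0.44, 7 at an unadjusted p under 0.05). Their summed level was 396 to 447 FPKM in TE and 543 to 681 in E. The adipocyte markers were below 0 for 7 of 8 (median -0.54) and the Schwann cell markers for 8 of 8 (median -0.40). The fast myofiber markers were above 0 for 11 of 12 (median 0.12). The erythroid markers were above 0 for 7 of 7 (median 1.17, 5 past the adjusted test of edgeR). The neutrophil markers were above 0 for 10 of 10 (median 1.99, 6 at an unadjusted p under 0.05) and the lymphocyte markers for 15 of 15 (median 1.46). The part of these lists in the values of the 10 genes was not tested.

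**Figure D3:**
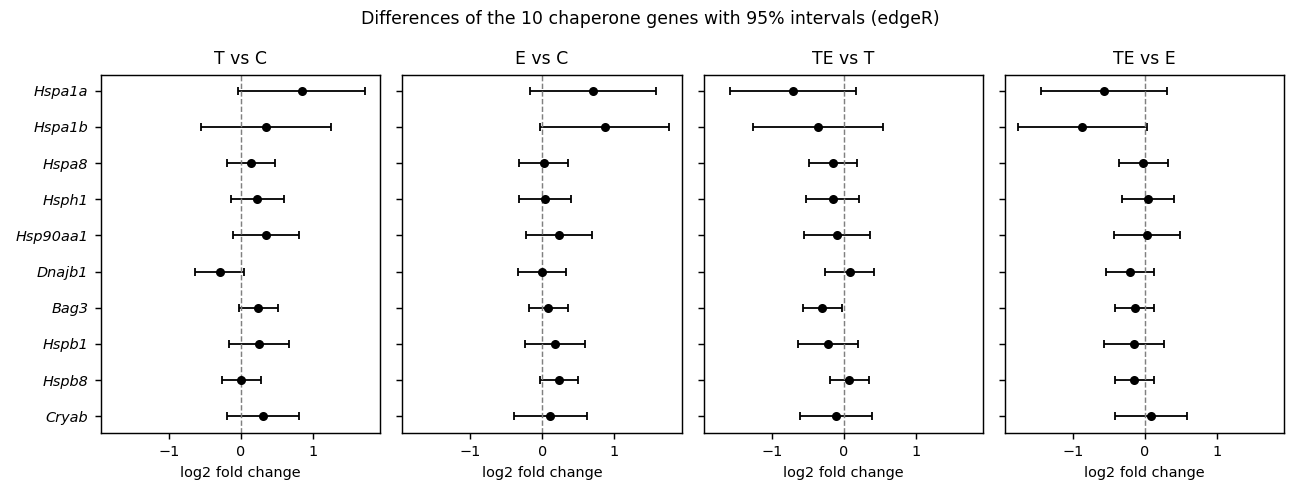
Log2 fold changes (x axis) of the 10 chaperone genes (y axis) in the 4 comparisons of 2 groups, with 95% intervals from the edgeR fit of all 16 libraries. Of the 40 intervals, 39 hold 0, and the exception is Bag3 in TE vs T, whose adjusted p is 0.843.

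Taken over both training states, the tumor effect gave 0 of the 10 genes at an adjusted p under 0.05 by edgeR (background 1.36%), DESeq2 and limma-voom. Of all 14749 genes, DESeq2 called 478 for this effect and limma-voom 223. Dnajb1 was the 1 gene of the 10 with an unadjusted p under 0.05 (background 14.2%), at -0.25 (SE 0.113, adjusted p = 0.315 by edgeR). Without E replicate 1 its value was -0.15, and with 1 library left out 0 to 2 of the 10 had an unadjusted p under 0.05. The training effect over both tumor states gave 0 of the 10 genes by edgeR (background 0.00678%), DESeq2 and limma-voom, and 0 at an unadjusted p under 0.05 by edgeR (background 10.8%). Of all 14749 genes, DESeq2 called 89 for the training effect and limma-voom 14. The interaction, which asks whether training acts differently with and without the tumor, also gave 0 of the 10 genes by these 3 tools (background 0.0%). Of all genes, edgeR and limma-voom called 0 for the interaction and DESeq2 called 20, and 1358 had an unadjusted p under 0.05 by edgeR. Hspa1a alone of the 10 had an unadjusted p under 0.05 there (background 9.21%), at -1.41 (SE 0.589, adjusted p = 0.505 by edgeR). Hspa1b had -1.22 (SE 0.602), Hspb1 -0.40 (SE 0.281) and Bag3 -0.38 (SE 0.182) for the interaction. Without E replicate 1, the interaction was -0.88 for Hspa1a and -0.55 for Hspa1b, and without TE replicate 1 it was -0.62 for Hspb1. The number of the 10 genes with an unadjusted p under 0.05 for the interaction was 6 without TE replicate 1 (Bag3, Cryab, Hspa1a, Hspa1b, Hspb1 and Hspb8, background 9.03%) and 0 without C replicate 3, E replicate 1, T replicate 1, T replicate 3 or TE replicate 4. The interaction was below 0 for 9 of the 10 genes and for 7404 of all 14749 tested genes. Its median was -0.27 on the log2 scale for the 10 genes, beside -0.0013 for all tested genes. It was below 0 for 10 of 10 slow myofiber (median -0.71), 10 of 10 macrophage (-0.58) and 8 of 8 adipocyte markers (-1.68). It was above 0 for 15 of 15 lymphocyte (median 4.36, 11 at an unadjusted p under 0.05) and 11 of 12 fast myofiber markers (0.18). The part of these lists in the values of the 10 genes was not tested.

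The genes were then compared from mouse to mouse, with the mean of each group subtracted from log2 CPM so that differences between groups could not give a correlation. Of the 45 pairs of the 10 genes, 38 had a Pearson r above 0, with a median of 0.62 and a median Spearman's rho of 0.59 (n = 16 libraries). The r passed a permutation test within groups (100000 resamples, two-sided, Benjamini-Hochberg over 45 pairs) in 21 pairs, all with r above 0. The rho passed in 18 pairs, and r and rho both in 15. With 1 library left out, an alternative chosen after the data were seen except for TE replicate 4, the median r was 0.57 to 0.71, and r passed in 12 (without TE replicate 1) to 29 pairs (without E replicate 1 or E replicate 2). Of these 29 pairs, 1 without E replicate 1 and 2 without E replicate 2 were pairs with Dnajb1 and had an r below 0. The rho then passed in 6 to 22 pairs, with 9 without C replicate 2, 8 without C replicate 3, 10 without T replicate 1, 6 without TE replicate 1, 10 without TE replicate 2 and 7 without TE replicate 4. Both passed in 6 to 19 pairs, with 7, 8, 6 and 7 without C replicate 2, C replicate 3, TE replicate 1 and TE replicate 4. An r above 0.7 was reached by 15 of the 45 pairs (33.3%) and by 0.685% of the 108759126 pairs of all tested genes, and, by gene, by 0.373% to 1.61% of the pairs that the 10 genes formed with the other 14739 tested genes.

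The inducible HSP70 pair had the highest r, 0.94 (rho 0.90, adjusted p = 0.000900 for each by permutation), and reads from the stretches they have in common match both genes. Hsp90aa1 and Hsph1 followed (r 0.90, rho 0.81, adjusted p = 0.00765 and 0.0230 by permutation). Hspa1a and Hspb1 had an r of 0.87 (rho 0.90, adjusted p = 0.00735 and 0.00420 by permutation). Hspa8 and Hsph1, both on the HSP70 cycle, had an r of 0.86 (rho 0.81, adjusted p = 0.00907 and 0.0230 by permutation). Without the 2 libraries farthest from the median of the gene named first in each pair, the r of these 4 pairs was 0.91, 0.87, 0.88 and 0.78. Hspb1 had the most pairs past the test, 8 of 9 by r and 7 by rho. By r, Bag3 followed with 7 and Hsp90aa1 with 5, whereas by rho Hspa1a followed with 6, and Bag3, Hspa8 and Hsph1 had 5 each. Cryab passed by r in 2 pairs, with Hspb1 (r 0.72, rho 0.59) and Hsp90aa1 (r 0.71, rho 0.60), and by rho in 0. Without the 2 libraries farthest from the median of Hspb1 and of Hsp90aa1, these r were 0.52 and 0.53. Dnajb1 passed in 0 of 9 pairs and had an r below 0 in 7, down to -0.56 with Hsph1 (adjusted p = 0.0611 by permutation). It passed by r in 2 pairs without C replicate 3 or without E replicate 2, and in 1 pair without C replicate 4, E replicate 1 or E replicate 4. In each of these pairs the r was below 0. Without E replicate 1, the mouse with its highest value, r was below 0 in 9 of 9 pairs, down to -0.76.

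**Figure D4:**
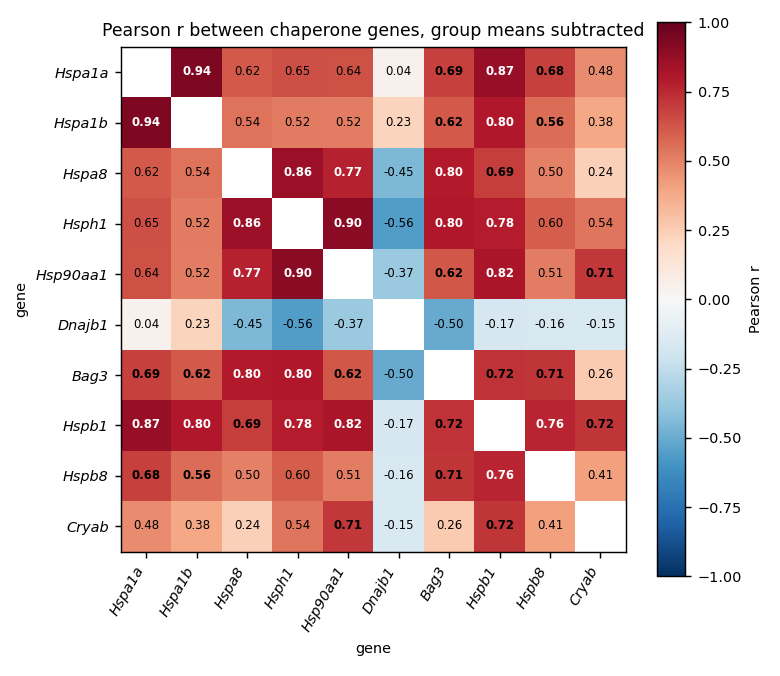
Pearson r of log2 CPM between each pair of the 10 chaperone genes over 16 libraries, with group means subtracted. Red is above 0 and blue below 0, bold numbers passed the permutation test with Benjamini-Hochberg adjustment over 45 pairs, and the row of Dnajb1 holds 0 bold numbers.

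With each gene scaled over the 16 libraries, the mean of the 10 genes was highest in T replicate 1 (0.99 SD above the mean), TE replicate 1 (0.95), T replicate 3 (0.94), E replicate 1 (0.88), E replicate 2 (0.73) and C replicate 2 (0.46). It was lowest in C replicate 3 (-1.07) and TE replicate 4 (-0.87). Each of the 4 groups held mice above and mice below 0. Library total had an r of 0.097 with this mean, and the 10 marker lists of cell and fiber types had an r between -0.19 and 0.37 with it. The highest were the adipocyte and endothelial markers, both at 0.37, and the slow myofiber markers had 0.055. Single genes, with group means subtracted, had larger values in places, such as Hsp90aa1 with adipocyte markers (r 0.58, rho 0.38) and fibroblast markers (r 0.51, rho 0.33), Cryab with fibroblast markers (r 0.52, rho 0.53), Hspb8 with macrophage markers (r -0.51, rho -0.61) and Dnajb1 with adipocyte (r -0.46, rho -0.36) and lymphocyte markers (r 0.45, rho 0.23). These values describe the 16 libraries, and the part of other cells in the pattern was not tested. E replicate 1, C replicate 3 and TE replicate 4 also had the highest lymphocyte markers, at 15.1, 24.0 and 63.0 summed FPKM against 0.933 to 7.86 FPKM in the other libraries, and their chaperone means were high in the first and low in the other two. Without TE replicate 4, r passed in 18 of the 45 pairs (median r 0.59), and rho and both passed in 7.

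The 5 genes outside the list whose log2 CPM followed this mean most closely over the 16 libraries were Xirp1 (r 0.91, rho 0.86), Atf3 (r 0.87, rho 0.83), Enah (r 0.86, rho 0.82), Dnaja1 (r 0.85, rho 0.84) and Foxs1 (r 0.84, rho 0.83). With group means subtracted, the 5 highest were Xirp1 (r 0.92), Dnaja1 (r 0.92), Enah (r 0.90), B4galt1 (r 0.88) and Foxs1 (r 0.88). Xirp1 encodes an actin-binding protein known from damaged muscle, Enah an actin regulator, Atf3 a stress-induced transcription factor and Dnaja1 a J-domain partner of HSP70. These genes were picked for their r out of all tested genes, so the values describe them and test nothing. Xirp1 had 140.2, 187, 107 and 120.1 CPM in C, 305, 226, 128 and 188 CPM in E, 330.2, 143, 454 and 179 CPM in T and 298, 112, 169 and 102 CPM in TE. The mice high for Xirp1 in the E, T and TE groups were those named above for the chaperones.

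**Figure D5:**
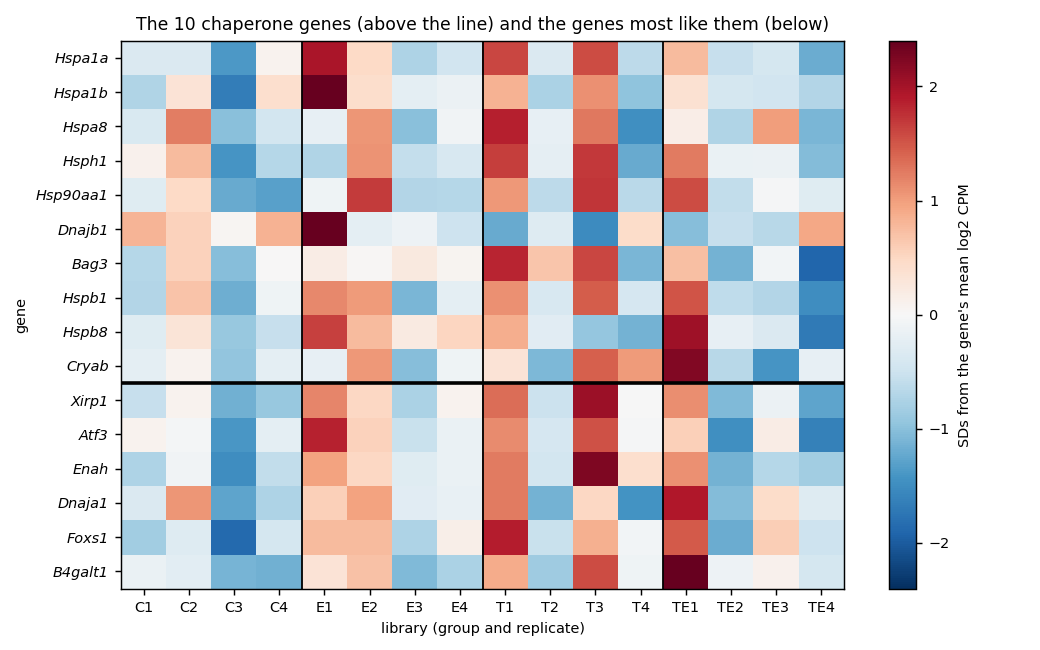
Scaled log2 CPM (color, SDs from the mean of each gene) of the 10 chaperone genes and of the 6 genes most like them (y axis) in the 16 libraries (x axis, by group and replicate). Columns such as T1, T3 and TE1 are red and C3 is blue for most genes, and Dnajb1 runs against T1, T3 and TE1.

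The rest of the chaperone network was described by 9 lists with 95 genes, of which 91 were tested. Of these, 1 gene passed in T vs C (background 0.678%), 1 in the tumor effect over both training states (background 1.36%) and 0 in each of the other 5 comparisons (edgeR). An unadjusted p under 0.05 was found for 15 of the 91 genes in T vs C (16.5%, background 14.2%), 9 in E vs C (9.89%, background 14.2%), 8 in TE vs T (8.79%, background 5.88%) and 7 in TE vs E (7.69%, background 9.23%). It was found for 13 in the tumor effect (14.3%, background 14.2%), 12 in the training effect (13.2%, background 10.8%) and 9 in the interaction (9.89%, background 9.21%). The median difference of the 91 genes was 0.052 in T vs C, -0.041 in E vs C, -0.045 in TE vs T and 0.035 in TE vs E on the log2 scale, beside -0.0012, 0.0033, 0.0014 and 0.0029 for all tested genes. The gene that passed was Fkbp5, an HSP90 cochaperone that is known to be raised by glucocorticoids. It had 32.2, 19.0, 22.1 and 20.6 CPM in C, 45.3, 65.9, 35.5 and 42.4 CPM in E, 94.1, 42.8, 142 and 48.8 CPM in T and 44.8, 33.4, 114 and 97.9 CPM in TE. Each mouse of the E, T and TE groups lay above the highest C mouse, and the T and TE groups spread widely. Groups free of overlap were found for 6.86% of all tested genes in T vs C and 9.08% in E vs C. The difference was 1.80 (SE 0.395, adjusted p = 0.0451 by edgeR) in T vs C and 1.21 (SE 0.274, adjusted p = 0.0337 by edgeR) for the tumor effect over both training states. Without T replicate 3, T vs C gave 1.39 (adjusted p = 0.154 by edgeR), and with the robust fit of edgeR the adjusted p was 0.105. With 1 library left out, the adjusted p stayed under 0.05 in 6 of 16 fits for T vs C, and it missed 0.05 without any 1 of the C or E mice or without T replicate 1 or 3. For the tumor effect over both training states, the adjusted p was 0.101 with the robust fit, 0.0680 with limma-voom, 0.0796 with the replicate block and 0.109 with limma on log2(FPKM + 1), and it stayed under 0.05 in 6 of 16 fits with 1 library left out. The E vs C value was 1.01 (SE 0.389, adjusted p = 0.266 by edgeR).

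By list, the differences in T vs C were above 0 for 3 of 4 heat shock factors, 4 of 8 relatives of HSP70, 9 of 14 genes of HSP90 and its cochaperones, 2 of 4 small heat shock genes, 10 of 11 J-domain genes, 4 of 8 exchange factors, 6 of 8 partners of BAG3, 12 of 13 chaperonins and 18 of 22 genes of the endoplasmic reticulum. The medians of these lists ran from -0.02 (exchange factors) to 0.12 (J-domain genes) on the log2 scale. In the lists other than that of HSP90, the gene with the smallest unadjusted p did not pass the test of edgeR. Among the heat shock factors this was Hsf1, the main activator of these genes, with -0.11 in TE vs T (SE 0.0626, adjusted p = 0.860) and 30.98 to 38.6 CPM over the 16 libraries. Among the HSP70 relatives it was Hspa12b, a distant HSP70 of endothelium, with 0.32 in TE vs T (SE 0.113, adjusted p = 0.753). Among the small heat shock relatives it was Hspb7, a filamin C binding protein of muscle, with 0.68 in T vs C (SE 0.263, adjusted p = 0.243), where T replicate 3 had 916 CPM and the other 3 T mice 435 to 473. The J-domain cochaperone was Dnajb4, with 0.43 in T vs C (SE 0.141, adjusted p = 0.173). The exchange factor was Bag5, with -0.30 in T vs C (SE 0.0776, adjusted p = 0.0823), and the partner of BAG3 was Synpo2, a Z-disc protein of the BAG3 pathway, with 0.26 in T vs C (SE 0.0673, adjusted p = 0.0888). The T mice lay outside the range of the C mice for Bag5, Synpo2, Dnajb4 and Hspb7, which were named for their small p, and for 6.86% of all tested genes.

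The chaperonins, the ring-shaped folding chambers of cytosol and mitochondria, had 13 tested genes. All 13 were below 0 in E vs C, with a median of -0.086 beside 0.0033 for all tested genes, and above 0 in TE vs E, with a median of 0.092 beside 0.0029, comparisons that share the E mice. The fast myofiber markers were below 0 for 11 of 12 in E vs C and above 0 for 11 of 12 in TE vs E, the fibroblast markers were above 0 for 9 of 9 and below 0 for 9 of 9, and their part in the values of the chaperonins was not tested. With edgeR, 0 of the 13 passed in E vs C (background 0.0881%) or TE vs E (background 0.231%), and 2 in each (15.4%) had an unadjusted p under 0.05 (background 14.2% and 9.23%). The mitochondrial Hspd1 had -0.20 in E vs C (SE 0.0603, adjusted p = 0.182). Of 22 chaperones and stress genes of the endoplasmic reticulum, 0 passed in any of these comparisons, and the smallest unadjusted p was that of Ddit3, the CHOP transcription factor, with -0.52 in E vs C (SE 0.142, adjusted p = 0.146). Its values were 14.6, 18.9, 17.0 and 19.0 CPM in C and 13.6, 10.9, 11.2 and 12.8 CPM in E, without overlap, as for 9.08% of all tested genes.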

How the data were processed

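RNA sequencing of gastrocnemius muscle from 16 mice in 4 groups of 4 was analysed, with groups and replicate numbers from the sample labels. The authors trimmed reads with fastp 0.20.1, aligned them to GRCm39 with HISAT2 2.1.0 and deposited counts per gene made with HTSeq 0.11.2. The authors also deposited FPKM values, which equal the counts over library total and over a fixed length of each gene (14819 genes checked, largest relative deviation 4.44e-16). The annotation release and strand setting are not given in the sources used here, and counts do not tell PCR copies from molecules. Columns of other samples numbered 0. The paper and the labels name different versions of the library kit.

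All genes passing filterByExpr (14749 of 35415) were fitted with edgeR 4.0.16 (TMM factors, 1 coefficient per group, quasi-likelihood test, two-sided, Benjamini-Hochberg adjustment within each of 7 comparisons), a fit tested on simulated data. The main effects average over the other factor, and the interaction is TE minus T less E minus C. CPM values were scaled with the TMM factors, and their log2 with a prior count of 2 was used for correlations (permutation within groups, 100000 resamples). Promoters were read from the GRCm39 genome at the starts of the Ensembl canonical transcripts in GENCODE M39. Genes outside the 10 were named by a rule: any gene of the 9 chaperone lists past the test, the smallest unadjusted p in each list over the comparisons of 2 groups, and the 5 genes most correlated with the mean of the 10, with and without group means. The 10 genes and the lists were chosen with earlier results of these data known. Alternatives were DESeq2 1.42.0, its size factors, no filter, only the groups compared, a robust fit, a replicate block, sample weights in limma-voom, limma 3.58.1 on log2(FPKM + 1) and log2(FPKM + 0.1), a mean FPKM of at least 1, each library left out, 3 libraries left out together, Hspa1a and Hspa1b summed, an unadjusted p, and a fold of 1.5.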

Additional observations from a re-analysis of the deposited data

Results flagged for a closer look

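In groups of 4 mice, a sample stood apart where its gap to the nearest other mouse exceeded 0.829 of the range of its group (Dixon's 95% limit). Of 40 groups checked (10 genes in 4 groups), 3 held such a sample, and chance gives about 1 in 20 groups. Hspa1b in E replicate 1 was 15.6 CPM, Dnajb1 in the same mouse was 18.1 CPM, and Hsph1 in E replicate 2 was 66.7 CPM, each the highest of its group. For Bag3, the 4 E mice lay above the mean of the C mice and the 4 TE mice lay below the mean of the T mice. Bag3 was picked for this pattern, and the share of all tested genes that show it was not counted. Its difference was 0.08 in E vs C (SE 0.129, adjusted p = 0.822 by edgeR) and -0.30 in TE vs T (SE 0.129, adjusted p = 0.843 by edgeR). The TE minus T difference in means, less the E minus C difference, was -40.8 CPM. The test of this difference, the interaction, gave -0.38 on the log2 scale (SE 0.182, adjusted p = 0.540 by edgeR).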

How the results depend on the processing

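The number of the 10 genes past the adjusted test was 0 in every comparison under each of 28 alternatives that could be run for it, including the 16 that leave out 1 library (leave-one-out range 0 to 0). With an unadjusted p under 0.05 it was 1 for TE vs T (Bag3), 1 for the tumor effect over both training states (Dnajb1) and 1 for the interaction (Hspa1a), and the last also had a fold past 2, giving 1 DEG. With 1 library left out, the number with an unadjusted p under 0.05 reached 4 in T vs C (without T replicate 4, beside 13.6% of all tested genes), 4 in TE vs T (5.92%) and 6 for the interaction (9.03%, both without TE replicate 1), and at most 2 in the other comparisons. With a fold of 1.5 the number of DEGs was 0. Of the 70 fitted differences of the 10 genes in 7 comparisons, 29 changed sign in at least 1 alternative, and the largest of these had a size of 0.31 on the log2 scale. Among those reported, Cryab changed sign in T vs C (-0.000158) and TE vs T (0.25) without T replicates 3 and 4 and TE replicate 4, and its TE vs T value ranged from -0.46 to 0.049 with 1 library left out. Correlated pairs numbered 21 by r, 18 by rho and 16 by both with log2(FPKM + 1), and with 1 library left out 12 to 29 by r, 6 to 22 by rho and 6 to 19 by both, against 21, 18 and 15 with all libraries. Without TE replicate 4 they numbered 18, 7 and 7. Leaving out the other libraries was added after the data were seen. Fkbp5 kept an adjusted p under 0.05 in T vs C with DESeq2 (0.00563), the size factors of DESeq2 (0.0451) and no filter (0.00758), and missed it with limma-voom (0.102), the robust fit (0.105), the groups compared only (0.0592) and limma on log2(FPKM + 1) (0.1104). With 1 library left out it ranged from 0.0170 to 0.154 in T vs C and from 0.0152 to 0.0862 for the tumor effect over both training states. The latter also missed 0.05 with the robust fit (0.101), limma-voom (0.0680) and limma on log2(FPKM + 1) (0.109). The cause was not tested.

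The replicate numbers stand for different mice, and the correlation of same-numbered libraries was -0.24 to 0.21 in 24 pairs, above 0.1 in 5, so the samples were not paired. With the replicate block, 0 of the 10 genes passed in each comparison, and Fkbp5 had an adjusted p of 0.0671 in T vs C and 0.0796 for the tumor effect by edgeR. The spread over 4 mice limits these tests, and the 95% interval of Hspa1a in T vs C ran up to a log2 fold change of 1.72.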
